A study of Mus musculus with 9 samples.

Results

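The genes described here are 40 DNA replication genes of the mouse, followed in kidneys whose ureter had been closed. They were chosen by symbol, and each symbol was taken from the accession of its array probe. All 40 had a probe, and 39 of them were among the 17741 genes that could be tested. RNA came from the left kidneys of 9 mice, 1 array each, all of them males of 10 weeks. All 9 carried the ISAM genotype on a mixed background (Epo–/–::3.3K-Epo3'-Tg458), in which the endogenous erythropoietin gene is lost and a transgene stands in for part of its expression, so anaemia is common to every arm. In the clip arm (3 mice) a vascular clip had closed the left ureter for 2 days. In the release arm (3 mice) the clip had been in place for 2 days and then off for 12 days. The control arm joined 2 sham-treated mice with 1 untreated mouse. The labels give no collection day for the controls, so time since the start of treatment cannot be told apart from the treatment in either comparison with them.

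DNA is copied once per cell cycle. In late mitosis and G1, the origin recognition complex, Cdc6 and Cdt1 load the MCM2-7 helicase onto origins, which is called licensing. In S phase, Cdc45 and GINS join the helicase, Mcm10 helps it to start unwinding, and polymerases, the sliding clamp PCNA and its loader RFC copy both strands behind it. E2F transcription factors control many genes of this machinery. Most cells of the adult kidney do not divide, and tubule cells are known to re-enter the cycle after injury.

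Levels are log2 of a probe's intensity over the 75th percentile of its array, so 0 is that percentile and 1 unit is a 2-fold difference. A level is comparable between arrays for one probe and not between probes. Changes are differences of arm means from a limma fit over all 9 arrays, given with the standard error of the fit. A change counts as called when its Benjamini-Hochberg (BH) adjusted p, over all genes tested, is under 0.05. Each arm has n = 3. In whole-kidney RNA, more cells of a type and more RNA per cell cannot be told apart.

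No spot was saturated, and 52.0% to 57.5% of probes were well above background. The share was highest on the clip arrays, at 56.0% to 57.5%, against 53.2% to 54.2% on control and 52.0% to 55.4% on release arrays. The lowest level well above background was also lowest on clip arrays (-4.68 to -4.56). It was -4.36 to -4.23 on control and -4.29 to -3.85 on release arrays. A fold given below as a bound sets each control value at no less than this floor of its array. Some probes above the floor were still not flagged as well above background, so "at least" holds under this choice of floor. Each of the 3 slides held 1 array of each arm, and the slide with the untreated control had a scan day of its own. Of the 39 genes, 35 were well above background on all 9 arrays. Orc1, Cdc6 and Cdc45 were well above background on all clip arrays and on no release or control array, and Dtl on all clip arrays, no release array and 1 control array. These 4 entered the test through the clip arm, where they are bright, so counts are led by the other 35.

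After 2 days of obstruction the replication genes were raised almost as one. Of the 35 genes measured on every array, 34 were higher in the clip kidneys than in the controls and 1, Mcm10, was lower. When the fit was limited to genes measured on every array, 20.6% of 15127 genes were called higher and 30.7% lower. The median change of the 35 genes was 1.49, with a range of -0.75 to 3.37. In the fit over all 17741 genes, 38 of the 39 were called higher and 1 lower, against a background of 21.4% higher and 27.5% lower. The median change over all genes in that fit was -0.09.

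Clip and control arrays did not overlap for any of the 39 genes. The arms lay apart in the higher direction for 38 of them, against 25.4% of all genes, and in the lower direction for 1, against 33.2%. Of the 35 genes measured on every array, 26 rose by at least 1 on the log2 scale and 10 by at least 2, against 9.44% and 3.35% of all 17741 genes. Over the 39 genes, the medians on slides 1, 2 and 3 taken alone were 1.60, 1.58 and 1.59, and the same 38 were higher on each slide. Of all 17741 genes, 32.5% were higher and 43.4% lower on all 3 slides. The 38 include Orc1, Cdc6, Cdc45 and Dtl, which entered the test through the clip arm. With the 2 sham kidneys alone as controls, 37 of the 39 genes were called higher and 1 lower in clip kidneys, with a median of 1.62, and 0 higher and 1 lower in release kidneys. With the 3 genes that were well above background on no control array set at their bounds, the median of the 39 was 1.49, against 1.59 as fitted.

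In the release kidneys, 12 days after the clip came off, the levels lay close to those of the controls. None of the 39 genes was called higher by limma, against a background of 1.46%, and 1, Mcm10, was called lower, against 0.372%. These background counts rest on single arrays and settings: 259 higher and 66 lower genes in the fit became 2 and 0 without release 2, 10 and 6 without sham 2, and 751 and 412 with slide as a block. Of the 35 genes measured on every array, 17 had a positive and 18 a negative change, and 31 lay within 0.3 of the controls either way. Their median change was -0.03. The release arrays all lay above the controls for 7 of the 39 and below them for 5, against 13.6% of all genes in either direction. In the fit limited to genes measured on every array, 1 gene (Gins3) was called higher, against 2.08%, and 1 (Mcm10) lower, against 0.807%. At an unadjusted p under 0.05 there were 6 replication genes and 3811 of all genes, and the alternatives called between 0 and 2 members in this comparison.

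Set directly against the clip kidneys, the release kidneys had lower levels of all 35 genes measured on every array, with a median change of -1.51. In the fit limited to genes measured on every array, 2641 of 15127 genes were called lower and 3971 higher. In the fit over all genes, all 39 were called lower, against a background of 17.4% lower and 23.5% higher. These 39 include Orc1, Cdc6, Cdc45 and Dtl, which entered the test through the clip arm. The median of the 39 was -1.57, and the smallest fall was that of Slbp (-0.39). With normexp correction Mcm10, Gins4, Slbp and Gmnn were not called (adjusted p 0.1554 to 0.2832, limma), and leaving out clip 3 or release 2 also lost Mcm10 and Gins4, as did leaving out release 1 for Gins4 (0.05224 to 0.06189). Release and clip arrays did not overlap for any of the 39, against 23.3% of all genes that lay apart in the lower direction. The comparisons share arrays, so their values stand side by side and are not independent.

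**Figure D1:**
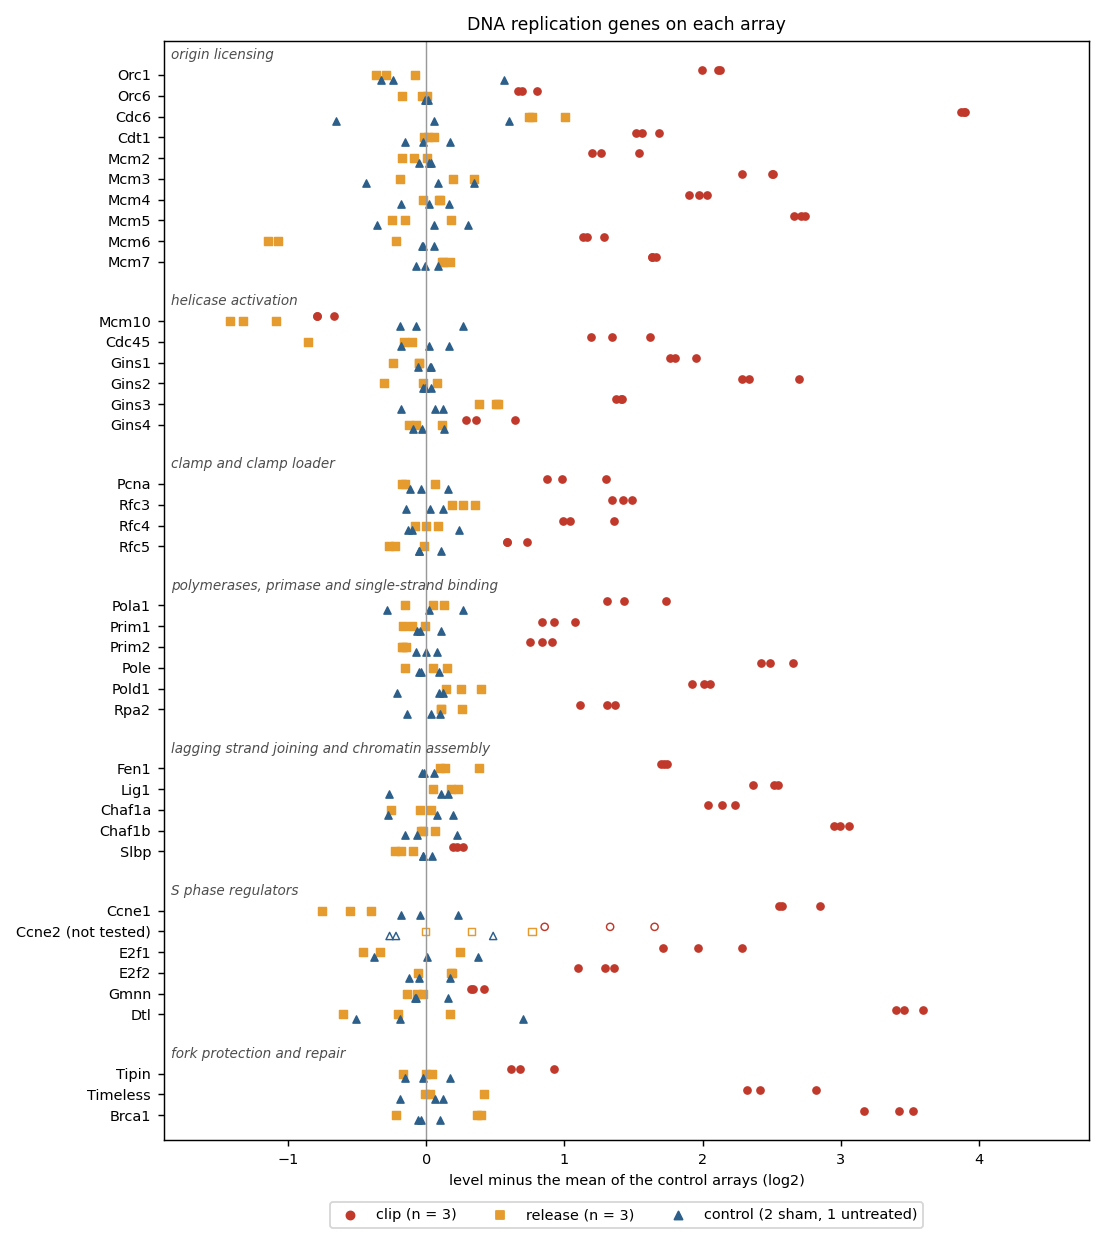
Levels of the 40 DNA replication genes on each of the 9 arrays, in log2 units relative to the mean of the 3 control arrays. Circles are clip kidneys, squares release kidneys and triangles controls. Circles lie right of the controls for every tested gene except Mcm10, while most squares lie among the triangles. Open symbols mark Ccne2, which was not tested.

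**Figure D2:**
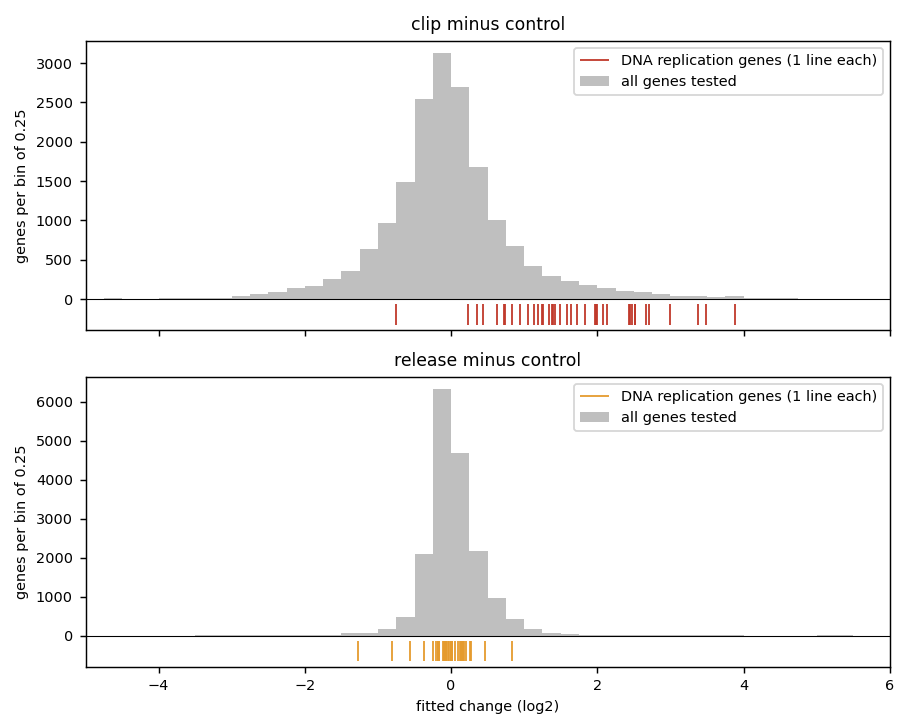
Fitted log2 changes of all 17741 genes (grey bars, genes per bin) and of the 39 replication genes (lines below the axis), for clip minus control (top) and release minus control (bottom). The lines spread from -0.75 to 3.89 in the top panel, where the outermost is Cdc6, not well above background on the control arrays, and most gather near 0 in the bottom one.

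The promoters of these genes were searched because so many members moved together. RefSeq windows (GRCm38.p6, 250 bases before to 50 after the gene start) were available for 31 of the 40. Exact matches on either strand were counted for 4 spellings of the E2F site, TTTCGCGC, TTTGGCGC, TTTCCCGC and TTTGCCGC. At least 1 lay in the windows of 14 of the 31 members (45.2%), against 2.6% of 27025 genes. The further replication lists described below had one in 22 of 75 genes with a window (29.3%). In windows that begin 100 bases before the start, the shares were 35.5% of members, 18.7% of those lists and 1.45% of all genes. The CCAAT box (CCAAT) lay in 64.5% of members, 53.3% of those lists and 41.1% of all genes. For the CHR spellings TTTGAA and TTCGAA the shares were 22.6%, 22.7% and 21.7%. Among members measured on every array, those with an E2F spelling had a median clip minus control change of 1.59 (n = 11) and those without one 1.30 (n = 16), and the ranges overlapped, at 1.20 to 2.70 and -0.75 to 3.37. A match to letters describes the sequence and does not show that a factor binds there.

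Stretches upstream of 5 genes are printed 5′ to 3′ on the gene's strand, with E2F spellings in capitals. Mcm6 and Mcm5 carry overlapping matches in opposite orientation, Gins3 and Dtl carry 1 match each, and Mcm10 carries none. Mcm10 is 1 of 17 tested members with a window and no match, whose clip minus control changes ran from -0.75 to 3.37. Mcm6 is at chr1:128359706-128359905 (minus strand), Mcm5 at chr8:75109309-75109467 (plus), Gins3 at chr8:95633359-95633558 (plus), Dtl at chr1:191575545-191575744 (minus) and Mcm10 at chr2:5012792-5012991 (minus). Each stretch begins 200 bases before the start, and that of Mcm5 ends where the RefSeq gene begins in another transcript.
Mcm6: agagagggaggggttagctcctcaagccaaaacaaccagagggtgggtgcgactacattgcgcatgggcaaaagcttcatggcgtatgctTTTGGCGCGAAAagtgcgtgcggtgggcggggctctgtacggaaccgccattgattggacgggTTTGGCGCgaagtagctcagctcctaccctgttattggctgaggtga
Mcm5: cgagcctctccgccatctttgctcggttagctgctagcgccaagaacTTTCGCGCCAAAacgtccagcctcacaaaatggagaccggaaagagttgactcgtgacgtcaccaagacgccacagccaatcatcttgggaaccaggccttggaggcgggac
Gins3: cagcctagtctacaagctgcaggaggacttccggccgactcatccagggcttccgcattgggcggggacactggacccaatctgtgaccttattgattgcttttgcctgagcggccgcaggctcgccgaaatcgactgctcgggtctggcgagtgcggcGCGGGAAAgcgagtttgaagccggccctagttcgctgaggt
Dtl: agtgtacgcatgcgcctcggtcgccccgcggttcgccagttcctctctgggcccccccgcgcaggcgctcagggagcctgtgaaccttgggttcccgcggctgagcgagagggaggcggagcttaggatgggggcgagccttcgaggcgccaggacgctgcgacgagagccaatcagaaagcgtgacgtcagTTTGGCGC
Mcm10: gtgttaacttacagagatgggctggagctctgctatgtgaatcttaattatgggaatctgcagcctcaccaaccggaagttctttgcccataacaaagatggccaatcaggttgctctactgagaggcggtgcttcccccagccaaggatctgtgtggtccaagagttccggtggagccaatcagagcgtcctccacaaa

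Among the 10 origin licensing genes, all rose in the clip kidneys. Cdc6 helps to bring the helicase to the origin. Its levels were -2.03, -2.0 and -1.99 on the clip arrays, -5.15, -5.13 and -4.89 on the release arrays, and -5.84, -5.30 and -6.55 on the control arrays. The 3 clip arrays agreed within 0.04, while the release and control values were not well above background. The rise is therefore given as a bound of at least 4.84-fold in clip over control. For it, control values were raised to the lowest level well above background on their array. The BH-adjusted p of 1.32e-05 (limma) is for the fitted change from those control values, and the bound itself was not tested. A second Cdc6 probe also lay apart, at -3.44 to -3.05 in clip kidneys and -6.51 to -6.43 in controls. Orc1, the ATPase that starts origin recognition together with its partner subunits, was at least 1.46-fold higher in clip than in control kidneys. Its adjusted p of 0.0001072 (limma) is likewise for the fitted change and not for the bound.

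Orc6, another subunit of that complex, had the smallest rise of the group. It stood at 2.32, 2.29 and 2.43 on the clip arrays, 1.60, 1.46 and 1.63 on the release arrays, and 1.64, 1.62 and 1.63 on the control arrays. The clip arrays were above all others, at a change of 0.72 ± 0.09, and the release and control ranges overlapped. The rest of the complex did not follow: Orc2 (0.02), Orc3 (-0.31) and Orc5 (-0.12) were not called, and Orc4 fell by 0.31 (adjusted p = 0.01711, limma).

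The 6 subunits of the MCM2-7 helicase rose in clip kidneys by 1.20 (Mcm6) to 2.70 (Mcm5). Mcm5 read 1.55, 1.60 and 1.63 in clip kidneys, -0.93, -1.27 and -1.36 in release kidneys, and -0.81, -1.06 and -1.47 in controls. The clip arrays spread over less than 0.1, and release and control arrays overlapped. Between these extremes lay Mcm3 (2.43 ± 0.21), Mcm4 (1.97 ± 0.11), Mcm7 (1.65 ± 0.08) and Mcm2 (1.34 ± 0.11). Cdt1, the loading factor that works with Cdc6, rose by 1.59 ± 0.10.

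Mcm6 was the one helicase subunit whose release arrays all lay below the controls. Its levels were 5.14, 5.10 and 5.26 in clip kidneys, 3.75, 2.83 and 2.89 in release kidneys, and 4.02, 3.95 and 3.94 in controls. Release 1 stood well apart from release 2 and 3, and the release minus control change of -0.81 ± 0.22 missed the threshold (adjusted p = 0.0926, limma). Without release 1 the change was -1.11 and was called (adjusted p = 0.005653, limma). The 5 other subunits had release minus control changes of -0.09 to 0.14, none of them called.

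Helicase activation held the 1 exception. Mcm10, which binds the loaded helicase and is needed for origin unwinding, was lower in clip kidneys and lower still after release. Its levels were 1.29, 1.29 and 1.42 on the clip arrays, 0.99, 0.67 and 0.76 on the release arrays, and 2.35, 2.01 and 1.89 on the control arrays. The 3 arms did not overlap, with release lowest, clip between and control highest. Mcm10 fell by 0.75 ± 0.14 in clip against control (adjusted p = 0.002365, limma) and by 1.28 ± 0.14 in release against control (adjusted p = 0.02035, limma). Release minus clip was -0.53.

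The Mcm10 values rest on 1 probe, so no other probe could be set beside it, and whether the probe reads the Mcm10 transcript alone was not tested. The fall in clip kidneys was called under every alternative tried. The fall in release kidneys kept its size, at -1.21 to -1.31 in the settings that lost the call, but its adjusted p exceeded 0.05 with normexp correction (0.1318), no filter on dim probes (0.0561), a fit of release and control arrays alone (0.06298), and without sham 2 (0.05256) or release 2 (0.07582).

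The other 5 genes of this step rose in clip kidneys. GINS is a ring of 4 subunits that travels with the helicase, and each of the 4 was called. Gins2 changed most, with 1.05, 0.69 and 0.64 in clip kidneys, -1.57, -1.67 and -1.95 in release kidneys, and -1.61, -1.67 and -1.66 in controls. Its change was 2.44 ± 0.14, and the release range enclosed the control range. Gins1 rose by 1.84 ± 0.10 and Gins3 by 1.40 ± 0.10.

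Gins4 rose least. Its levels were 1.07, 1.14 and 1.43 in clip kidneys, 0.66, 0.71 and 0.89 in release kidneys, and 0.69, 0.75 and 0.91 in controls. The lowest clip array exceeded the highest control by under 0.2, at a change of 0.43 ± 0.12 (adjusted p = 0.01999, limma), and the call was lost without clip 3, sham 1 or sham 2, without a filter on dim probes and with normexp (adjusted p 0.05142 to 0.1734, limma). Cdc45, the third component of the active helicase, was at least 2.16-fold higher in clip than in control kidneys. The fitted change of Cdc45, and not this bound, had an adjusted p of 0.0008426 (limma). It was not called with normexp correction (0.05411).

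Gins3 was the GINS subunit with release arrays above the controls. It read -1.36, -1.37 and -1.40 in clip kidneys, -2.26, -2.28 and -2.39 in release kidneys, and -2.96, -2.66 and -2.71 in controls. The release arm lay between clip and control without overlapping either. Its release minus control change of 0.47 ± 0.10 missed the threshold (adjusted p = 0.05801, limma). It was called with slide as a block (0.0473) and in the fit limited to genes measured on all arrays (0.04699).

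**Figure D3:**
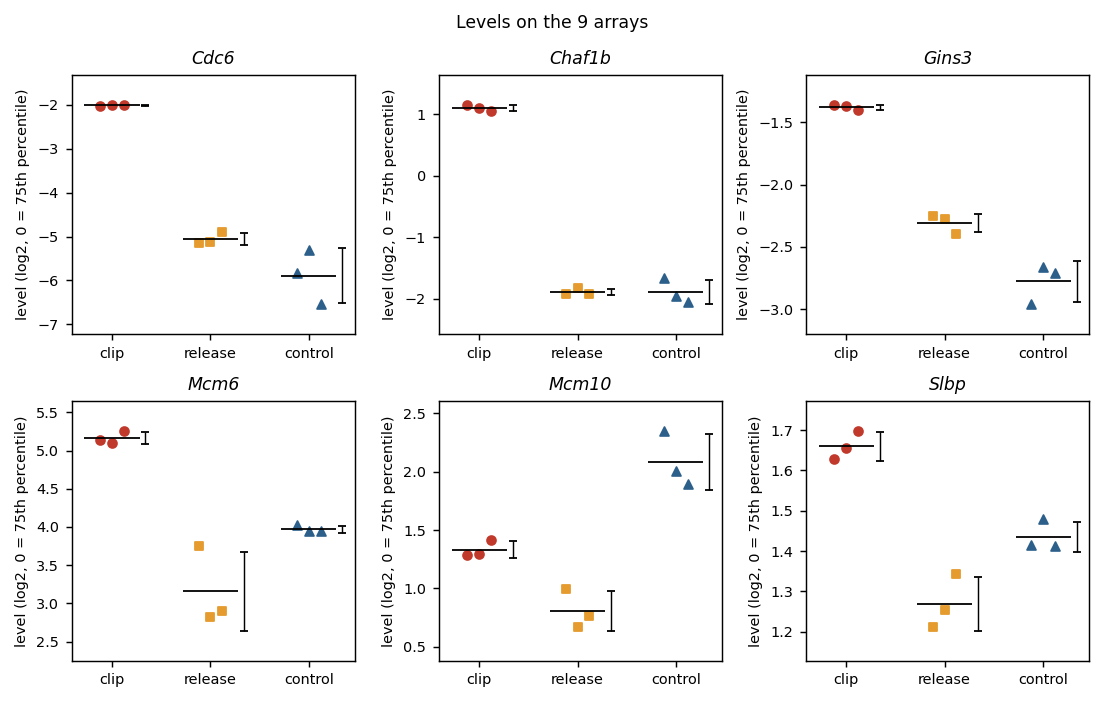
Levels of 6 genes on the 9 arrays (log2, 0 at the array's 75th percentile), with clip at the left, release in the middle and control at the right of each panel. Horizontal lines are arm means and vertical bars the SD of 3 arrays. Mcm10 differs from the other panels in that its control arrays are highest, and release 1 stands apart for Mcm6.

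The clamp and its loader rose moderately. Pcna, the sliding clamp that holds polymerases on DNA, rose by 1.05 ± 0.14 in clip against control. Its levels were 4.22, 4.11 and 4.54 in clip kidneys, 3.09, 3.06 and 3.31 in release kidneys, and 3.12, 3.20 and 3.40 in controls. All clip arrays were above the rest, and release and control arrays were interleaved.

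Rfc3 changed most among the loader subunits, which open the clamp around DNA. It stood at -1.59, -1.51 and -1.45 in clip kidneys, -2.59, -2.75 and -2.67 in release kidneys, and -2.81, -3.09 and -2.91 in controls. The change was 1.42 ± 0.10 in clip kidneys, and the release arrays lay just above the controls, at a change of 0.27 that was not called (adjusted p = 0.1803, limma). Rfc5 changed least, with 2.45, 2.31 and 2.31 in clip kidneys, 1.70, 1.49 and 1.45 in release kidneys, and 1.83, 1.67 and 1.67 in controls. Its clip arrays lay above all others (0.63 ± 0.10, not called with normexp, adjusted p = 0.0532, limma) and the other arms overlapped. Rfc4 rose by 1.13 ± 0.14.

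All 6 genes for polymerases, primase and single-strand binding rose in clip kidneys. Pole, the catalytic subunit of the leading strand polymerase epsilon, read 1.07, 0.85 and 0.91 in clip kidneys, -1.43, -1.53 and -1.73 in release kidneys, and -1.49, -1.62 and -1.64 in controls. Its clip arrays stood over 2 units above every other array, with a change of 2.52 ± 0.11 (adjusted p = 2.18e-06, limma). Pold1, the catalytic subunit of polymerase delta, rose by 2.00 ± 0.12, and Pola1, that of polymerase alpha, by 1.49 ± 0.17. Rpa2, part of the protein that coats single-stranded DNA, rose by 1.26 ± 0.11.

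The primase subunits, which make the RNA primers, rose least here. Prim2 stood at 0.23, 0.32 and 0.39 in clip kidneys, -0.67, -0.70 and -0.69 in release kidneys, and -0.45, -0.53 and -0.60 in controls. Its clip arrays were highest (0.83 ± 0.08), and its release arrays lay below the controls by 0.16, a change that was not called (adjusted p = 0.3091, limma). Prim1 rose by 0.95 ± 0.10.

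Genes for joining the lagging strand and packing new DNA held both a large and a very small rise. Chaf1b, a subunit of the CAF-1 complex that places histones on new DNA, read 1.16, 1.10 and 1.06 in clip kidneys, -1.92, -1.83 and -1.93 in release kidneys, and -1.67, -1.96 and -2.05 in controls. It was 8-fold higher in clip than in control kidneys (3.0 ± 0.11, adjusted p = 1.23e-06, limma), and the release range lay inside the control range. Chaf1a rose by 2.14 ± 0.14. Lig1, which seals the joined fragments, rose by 2.47 ± 0.13, and Fen1, the flap nuclease that trims them, by 1.72 ± 0.10.

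Slbp, which binds the stem-loop of replication-dependent histone mRNAs, was the smallest rise called. Its levels were 1.63, 1.66 and 1.70 in clip kidneys, 1.21, 1.25 and 1.34 in release kidneys, and 1.41, 1.48 and 1.41 in controls. The arms did not overlap, but the change of 0.23 ± 0.08 only just passed (adjusted p = 0.04447, limma) and was lost under 13 alternatives, with adjusted p up to 0.8941.

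Among the regulators of S phase, all 5 genes tested rose in clip kidneys. Ccne1, cyclin E1, which drives entry into S phase with Cdk2, rose by 2.66 ± 0.15 in clip kidneys. It read 1.53, 1.5 and 1.80 in clip kidneys, -1.45, -1.80 and -1.60 in release kidneys, and -0.82, -1.10 and -1.23 in controls. The release arrays lay below all controls, at -0.57 ± 0.15, which missed the threshold (adjusted p = 0.08177, limma). A dimmer second probe for Ccne1 differed by 1.41 in the same direction, with no control array well above background. The activators E2f1 and E2f2 rose by 1.99 ± 0.25 and 1.25 ± 0.12.

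Dtl, the substrate receptor that sends Cdt1 to the CRL4 ubiquitin ligase, had levels of -0.97, -0.77 and -0.91 in clip kidneys, -4.19, -4.57 and -4.97 in release kidneys, and -3.67, -4.56 and -4.88 in controls. Its fitted change of 3.48 ± 0.31 was set against control values of which 1 of 3 was well above background, so its size is uncertain. Release and control arrays overlapped. A second Dtl probe was not well above background on any array. Gmnn, geminin, the inhibitor of Cdt1, changed far less, with 3.48, 3.50 and 3.58 in clip kidneys, 3.14, 3.02 and 3.09 in release kidneys, and 3.08, 3.09 and 3.32 in controls. The clip arrays were above the controls by 0.36 ± 0.10 (adjusted p = 0.01365, limma), a call lost without sham 2 (0.0521) and with normexp (0.5491).

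Ccne2, cyclin E2, was the member left out of the test, because its brighter probe was well above background on 1 clip array only. Its levels were -4.52, -5.0 and -4.20 in clip kidneys, -5.53, -5.86 and -5.09 in release kidneys, and -6.12, -6.07 and -5.37 in controls. The clip arrays were the highest and the other arms overlapped, but the values other than that of clip 3 are not well above background and give no fold.

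The 3 fork protection and repair genes all rose in clip kidneys. Brca1, which guards stalled forks and acts in recombination repair, changed most of the 35 genes measured on every array. It read -0.14, 0.11 and 0.21 in clip kidneys, -2.91, -3.53 and -2.94 in release kidneys, and -3.35, -3.37 and -3.21 in controls. Brca1 was 10.4-fold higher in clip than in control kidneys (3.37 ± 0.18, adjusted p = 4.37e-06, limma), and its second probe was not well above background on any array.

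Timeless and Tipin form a pair that steadies the moving fork, and their changes differed in size. Timeless rose by 2.52 ± 0.17, and its second probe differed by 1.29 in the same direction. Tipin stood at 2.36, 2.29 and 2.61 in clip kidneys, 1.73, 1.51 and 1.68 in release kidneys, and 1.66, 1.53 and 1.86 in controls. All clip arrays exceeded the rest, at a change of 0.74 ± 0.13, and the other arms overlapped.

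Across the 39 genes, some arrays stood at one end of their arm more often than others. Clip 3 was the highest clip array for 24 genes, release 1 the highest release array for 26, and sham 1 the highest control array for 23. The untreated array was the lowest control for 21 genes. The median level of the 39 genes was 1.06 to 1.10 on the clip arrays, -0.89 to -0.67 on the release arrays, and -1.02 to -0.81 on the control arrays, so these orders were small beside the gap between clip and the other arms.

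Other replication genes, in 6 lists of 93 genes beside the 40, moved less uniformly. Of 84 tested, 49 rose, 9 fell and 26 were not called in clip against control, with a median change of 0.57. These counts and those of the lists below include genes that entered the test through the clip arm, such as Top2a. Genes given below as a bound had no control array well above background, and counts without such genes were not made. Over all genes, 21.4% were called higher and 27.5% lower in that comparison, which also stands beside the list counts below. After release, 1 of the 84 was called higher and none lower than in controls with limma, against 1.46% and 0.372% of all genes. The 1 was E2f7, a repressor of the E2F family, with no release or control array well above background. The same E2f7 was at least 4.71-fold higher in clip than in control kidneys.

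Within complexes, the subunits outside the 40 genes often changed less or not at all. Polymerase delta was complete, with Pold2 (0.56), Pold3 (0.97) and Pold4 (0.97) rising in clip kidneys beside Pold1. In polymerase epsilon Pole2 (1.20) and Pole3 (0.32) rose and Pole4 (-0.25) was not called. Pola2, the accessory subunit of polymerase alpha, rose by 0.65. In CAF-1, Rbbp4, a histone-binding subunit shared with other chromatin complexes, fell by 0.28 (adjusted p = 0.04693, limma).

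Of the 9 genes for RFC and the alternative clamp loaders, 7 rose, and the loaders' own subunits Dscc1 (3.53), Chtf18 (2.88) and Atad5 (1.80) had larger changes than Rfc1 (0.50), Rfc3, Rfc4 and Rfc5. Rfc2 (0.13) and Chtf8 (0.12) were not called. Rpa3 (0.56 ± 0.34) was not called beside Rpa2.

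**Figure D4:**
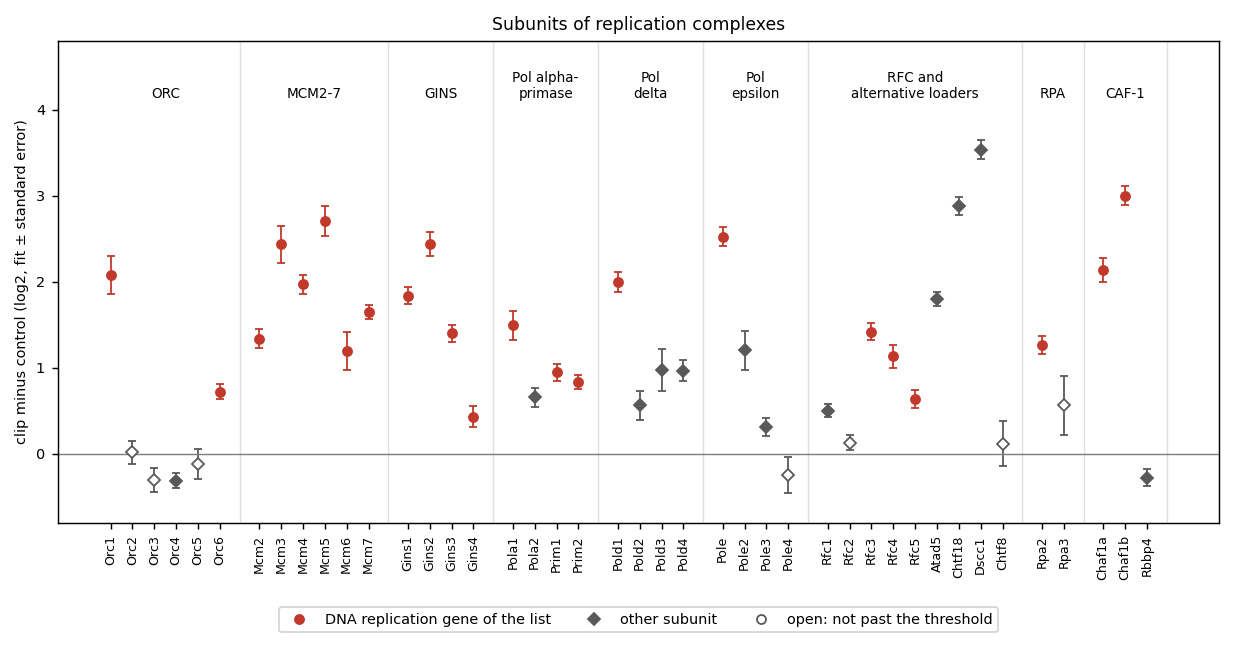
Fitted log2 changes, clip minus control, for each tested subunit of 9 replication complexes, with the standard error of the fit. Circles are genes of the 40 and diamonds other subunits. Filled symbols passed the threshold. All MCM2-7, GINS and polymerase delta subunits lie above 0, while Orc4 and Rbbp4 are called below it.

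Around origins, 10 of 15 further genes rose in clip kidneys and 1, Orc4, fell, against 21.4% of all genes higher and 27.5% lower. Recql4, a helicase needed for initiation, was at least 4.05-fold higher in clip than in control kidneys, Wdhd1 rose by 2.13 and Dbf4, the activator of the Cdc7 kinase, was at least 1.71-fold higher. For topology and chromatin, 8 of 14 rose and 1, Rbbp4, fell. Uhrf1, which guides DNA methylation to new strands, rose by 4.04 ± 0.15, Top2a, a topoisomerase, was at least 11.3-fold higher, and Asf1b, a histone chaperone, rose by 3.5 ± 0.12. Its paralog Asf1a (-0.07) was not called.

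In the list for E2F and G1/S control, 10 of 19 genes tested rose and 5 fell in clip kidneys, where the share of falls was close to the 27.5% of all genes called lower. Ccna2, cyclin A2, rose by 3.64 ± 0.11, and E2f8, a repressor like E2f7, was at least 3.52-fold higher. The largest falls were those of Rbl2 (-0.99 ± 0.12), the pocket protein p130 of quiescent cells, and by the cyclin-dependent kinase inhibitors Cdkn1c (-0.52 ± 0.19) and Cdkn1b (-0.47 ± 0.16). Cdkn1a, another inhibitor of such kinases, which was singled out after its value was seen, rose by 1.23 ± 0.23.

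Among 13 checkpoint and repair genes tested, 8 rose and 1 fell in clip kidneys. For this list and the next, 21.4% of all genes were called higher and 27.5% lower. Fanci, which acts in the repair of DNA crosslinks, rose by 3.72 ± 0.22 and was well above background on 1 control array. Hus1, part of the checkpoint clamp, fell by 0.90 ± 0.22. Of 9 genes for CRL4 and the anaphase-promoting complex, 3 rose, namely Cdc20 (3.1 ± 0.22), Fbxo5 (1.87 ± 0.17) and Fzr1 (0.47 ± 0.10), and Cul4a fell by 0.35 ± 0.10.

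Markers of cell types differed in how they moved. Beside the marker counts here and below, 21.4% of all genes were called higher and 27.5% lower in clip kidneys. The 6 cycling cell markers (Mki67, Top2a, Ccnb1, Cdk1, Aurkb and Plk1) all rose in clip kidneys and none was called after release. Top2a and Aurkb were well above background on clip arrays only and so entered the test through that arm. Ccnb1 was well above background on no control array. The summed linear level of the 6, where 1 is the 75th percentile of an array, was 11.8 to 12.8 in clip kidneys, 1.04 to 1.18 in release kidneys and 0.735 to 1.09 in controls. Such a sum is led by its brightest probe, here that of Mki67. Macrophage and monocyte markers rose for 6 of 7 in clip kidneys (sums 9.80 to 11.6 in clip, 7.88 to 9.07 in release and 5.45 to 6.76 in control kidneys). These sums are led by Csf1r, the brightest of the 7 and the 1 not called. Of the 6 that rose, Itgam was well above background on clip arrays only, and Lyz2 and Ccr2 on no control array. Fibroblast and myofibroblast markers rose for 6 of 6 (147 to 187 in clip, 49.0 to 66.2 in release and 28.6 to 34.7 in control kidneys). Of these, 4 were also called higher in release than in control kidneys. So were 1 macrophage marker (Ccr2, by a fitted 2.40) and 1 T cell marker (Cd3g, by a fitted 0.96), both with no control array well above background. Over all genes, 1.46% were called higher in that comparison. The adjusted p of these marker calls lay at 0.03038 to 0.04883 (limma). With normexp 0 of all genes were called higher there, and without release 2 only 2 were.

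T cell markers rose for 4 of 5 tested in clip kidneys (sums 1.09 to 1.45 in clip, 0.706 to 1.28 in release and 0.404 to 0.57 in control kidneys) and B cell markers for 1 of 3 (0.762 to 0.985 in clip, 0.477 to 0.724 in release and 0.415 to 0.468 in control kidneys). Neither of the 2 neutrophil markers tested was called. Of 5 erythroid markers, 1 (Epb42, well above background on clip arrays only) rose and 3 fell in clip kidneys. The largest fall was that of Slc4a1 (-4.40), which intercalated cells of the kidney also express. Without Slc4a1 the summed level of the other 4 was 2.05 to 2.41 in clip, 2.21 to 3.08 in release and 2.15 to 3.34 in control kidneys, with overlap. Proximal tubule markers fell for 6 of 6 in clip kidneys (106.9 to 177 in clip, 394 to 500.1 in release and 472 to 563 in control kidneys), thick limb and distal tubule markers for 4 of 4 (143 to 176 in clip, 367 to 399 in release and 318 to 370 in control kidneys), collecting duct markers for 2 of 4 and podocyte markers for 3 of 4. Endothelial markers had 1 call in each direction among 5. The 10 tubule markers were well above background on all 9 arrays, which fits the kidney label. Which cells carried the replication transcripts, and the part of infiltrating or dividing cells in the changes, was not tested.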

How the data were processed

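Each of the 9 kidneys was read on a single-colour Agilent array, from 500 ng of total RNA per the labels. Per the file headers, Feature Extraction 10.7.3.1 made the deposited spot intensities, with background subtracted within each array and no scaling between arrays. The deposited files also hold other columns of 0 or 1 flags for spots above background, saturated or outlying. A deposited table of log2 values from the authors was not used, because its rows had a median correlation of 0.0188 with the probes they name.

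Each intensity was set over the 75th percentile of its array on the log2 scale, outlier spots left out. Probes well above background on at least 3 arrays were kept, and the brightest probe stood for each gene. Changes were tested with limma 3.58.1 (R 4.3.3) in 1 model of 3 arms and 9 arrays, with Benjamini-Hochberg (BH) adjustment over 17741 genes. A check on simulated arrays with independent noise asked that planted changes be recovered in size. It set no limit on false calls. The number of arrays limits the precision. All 40 genes may be named. Arrays are listed for those with the largest or smallest change of a role, those not tested and those called or nearly called after release. They are also listed for Mcm5 and Pcna, which meet none of these terms. Up to 3 rises and 3 falls are named per further list. Further subunits and paralogs were named after their values were seen. Members and lists were chosen with earlier results of these data known.

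Deviations from the arm means correlated at 0.161 to 0.281 between arrays of 1 slide and at -0.239 to 0.0029 between slides. Replicate numbers follow the slides except for the untreated array, so both blocks were run as alternatives. Normexp used the median signal and background columns of the files. The labels list separate mice by number only, so p-values measure the spread between these samples.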

Additional observations from a re-analysis of the deposited data

How the results depend on the processing

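Under the alternatives tried, no called change of a replication gene turned its direction, and under all of them 34 of 39 genes stayed on their side of the threshold in clip minus control, 36 in release minus control, where all but Mcm10 were not called to begin with and Mcm10 lost its call under 5, and 35 in release minus clip. Leaving out 1 array at a time called 35 to 38 members higher and 1 lower in clip minus control, with medians of 1.51 to 1.62, and 37 to 39 lower in release minus clip (-1.61 to -1.52). In release minus control it called 0 higher and 0 to 2 lower (-0.06 to -0.01), with 2 to 264 of all genes higher and 0 to 79 lower. Over all genes, leave-one-out counts were 3159 to 3738 higher and 3988 to 4867 lower in clip minus control, and 3253 to 4391 higher and 2459 to 3261 lower in release minus clip. The replicate block gave 37 members higher and 1 lower in clip minus control, 0 and 1 in release minus control and 39 lower in release minus clip. With that replicate block 160 genes were higher and 43 lower in release minus control.

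Normexp gave smaller medians, at 1.12 in clip minus control and -1.17 in release minus clip, with 2519 genes higher and 3107 lower in clip minus control, 0 and 1 in release minus control, and 2270 higher and 1874 lower in release minus clip. It moved the median of all genes to 0.10 in clip minus control. Quantile normalization gave medians of 1.70 and -1.67, and 87 genes higher and 30 lower in release minus control. Limiting the fit to genes measured on all arrays, which also drops 4 members, gave a median of 1.49, 1 member (Gins3) higher and 122 genes lower in release minus control. Without a filter on dim probes 11 genes were higher and 1 lower in release minus control, and 10515 higher in release minus clip. Slide as a block called 751 genes higher and 412 lower in release minus control, with 1 member (Gins3) higher. Fitting only release and control arrays called 0 and 0. Members lower in release minus control came to 0 with normexp, with no filter and in that 2-arm fit. The cause of these differences was not tested. Signal near background limits Orc1, Cdc6, Cdc45, Dtl and Ccne2.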
